A study of Rattus norvegicus with 40 samples.

Results

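Of 10 listed genes of the endothelium and of angiogenesis, Pecam1, Kdr, Flt1, Tek, Tie1, Emcn, Vegfa, Angpt1 and Vwf were measured in whole lung and whole intestine of Wistar rat embryos. These 9 genes had 13 probe sets (groups of short array oligonucleotides for a transcript) among 31042, found by their gene symbol in the platform annotation. Cdh5, the vascular endothelial cadherin, was listed and not measured here. The arrays fell into 4 groups of 10: lung at gestational day 20 (E20), lung at E16, intestine at E20 and intestine at E16. The series is about how both organs are prepared for birth. No treatment or genetic change is labelled in any group. The labels mention freezing of tissue from more than 1 sibling and do not settle if each array stands for 1 embryo or a pool. The p-values therefore measure the spread between these arrays, which may be partly technical, and age and litter cannot be told apart where embryos of an age shared a litter. RNA was labelled from 2 µg for lung and 1 µg for intestine, so tissue and RNA amount cannot be told apart either.

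Endothelial cells line all blood vessels, and in late gestation the lung builds the capillary bed that later takes up oxygen, while the intestine builds the vessels of its villi. The growth factor VEGF-A, made largely by epithelial and other non-endothelial cells, acts through the receptor tyrosine kinases encoded by Kdr and Flt1 on endothelium. A second ligand family, the angiopoietins, acts through the kinase encoded by Tek and is modulated by its relative Tie1. Pecam1 encodes an adhesion molecule of endothelial junctions, also present on platelets and leukocytes, Emcn a surface sialomucin of capillary and venous endothelium, and Vwf the clotting factor stored in endothelial granules and in platelets.

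Levels are log2 of the deposited intensity, and the median of all values was 7.89. Where a gene had several probe sets, the brightest one (mean of all arrays) stood for it. A gene was called, and is said to have risen or fallen, at a limma adjusted p (Benjamini-Hochberg over all probe sets) under 0.05 together with a fold of at least 2. Array medians lay between 219.6 and 263.3 intensity units, and arrays correlated with their own group at a median of 0.964 to 0.989. Genes that mark lung (Nkx2-1, Sftpc, Sftpb, Tbx4 and Foxf1) averaged 11.85 to 12.41 in lung E20 and 9.66 to 10.25 in lung E16, against 6.72 to 7.08 in intestine E20 and 6.80 to 7.60 in intestine E16. Genes that mark intestine (Cdx2, Cdx1, Vil1, Fabp2 and Cdh17) averaged 11.80 to 12.27 in intestine E20 and 7.05 to 8.28 in intestine E16, so that these markers were still low at E16. The 5 endothelial markers Pecam1, Kdr, Tek, Tie1 and Emcn had means above the median of all values in all 4 groups. In 4 lung E16 arrays (replicates 2, 5, 7 and 9) 7 cardiac muscle genes averaged 9.08 to 11.86, against 7.41 to 7.95 in the other 6.

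The RefSeq table of promoters (build GRCr8) held a window for 5 of the genes, Kdr, Flt1, Tie1, Emcn and Vegfa. Those of Emcn and Tie1, which rose in lung, and of Kdr, which was not called there, are shown as the 250 bases before the annotated gene start. Capitals mark the hexamer AGGAAG or its reverse complement, a sequence that ETS-family factors, common in endothelium, can bind.
Emcn, chr2:228564289-228564538, plus strand: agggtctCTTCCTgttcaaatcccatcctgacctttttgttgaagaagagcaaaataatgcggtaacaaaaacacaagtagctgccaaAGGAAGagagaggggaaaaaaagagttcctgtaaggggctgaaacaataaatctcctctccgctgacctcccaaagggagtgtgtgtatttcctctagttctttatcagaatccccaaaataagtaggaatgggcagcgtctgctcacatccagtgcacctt
Tie1, chr5:137304982-137305231, minus strand: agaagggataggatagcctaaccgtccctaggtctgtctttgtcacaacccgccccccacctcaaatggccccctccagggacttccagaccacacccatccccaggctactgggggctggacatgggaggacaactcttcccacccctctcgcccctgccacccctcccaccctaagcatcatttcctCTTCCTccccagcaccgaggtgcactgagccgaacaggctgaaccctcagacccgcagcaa
Kdr, chr14:32571813-32572062, plus strand: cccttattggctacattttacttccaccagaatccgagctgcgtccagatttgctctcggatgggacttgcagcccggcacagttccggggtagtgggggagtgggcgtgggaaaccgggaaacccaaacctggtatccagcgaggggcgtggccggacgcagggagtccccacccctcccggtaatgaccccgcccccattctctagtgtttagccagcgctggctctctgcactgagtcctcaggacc
The hexamer, searched on both strands, occurred 2 times in the Emcn window, 1 time in Tie1 and 2 times in Flt1, which was not called in lung. It occurred 0 times in Kdr and 0 times in both windows of Vegfa, which rose in lung. The hexamer was present in 29.5% of all 33469 promoter windows of this length. The related CGGAAG (13.9% of all windows) and ACGTG, 1 form of the core of the hypoxia response element (16.6%), were in none of the members' windows. The other form of this core, GCGTG, was not searched, and the Kdr window shown above holds it. The matches describe letters in a short window, and sequence beyond these 250 bases was not searched. Apart from CGGAAG, other sequences that ETS-family factors can bind were not searched either. A window without capitals, such as that of Kdr, is therefore not shown to lack such sites.

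In the lung, junction, receptor and sialomucin transcripts and Vegfa were higher at E20 than at E16. Of the 9 members 4 rose and none fell, against 7.15% of all 14217 genes that rose and 4.63% that fell. The arrays of the ages did not overlap for 6 of the 9, against 31.1% of all genes. The members' median change was 0.91, against -0.0064 over all genes. With bulk RNA, more cells of a type and more RNA per cell cannot be told apart.

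Emcn had the largest change of the members in the lung. Its level ran from 11.30 to 11.86 (median 11.59) in lung E20, against 9.26 to 10.57 (median 9.97) in lung E16. The arrays of both ages did not overlap, and the change was 1.64 (SE 0.14, limma adjusted p = 2.04e-13), a fold of 3.12. Pecam1 ran from 10.35 to 10.97 (median 10.87) in lung E20, against 9.18 to 9.59 (median 9.41) in lung E16. It rose by 1.31 (SE 0.11, limma adjusted p = 8.34e-14), again without overlap.

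**Figure D1:**
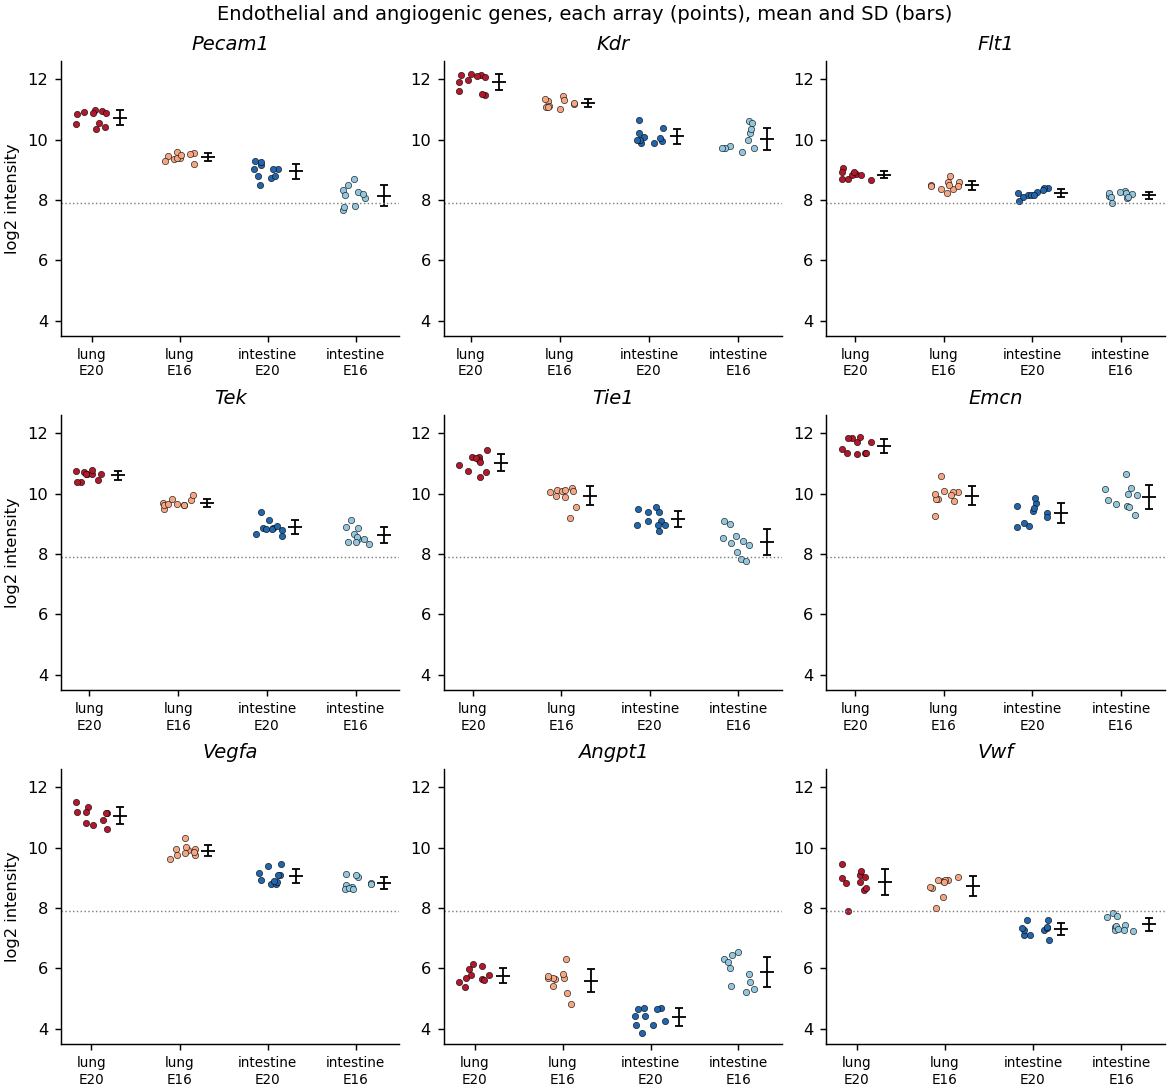
Log2 intensity of the 9 measured genes in each array (points) of lung E20, lung E16, intestine E20 and intestine E16, with the group mean and SD beside the points. The dotted line is the median of all log2 values, 7.89. Lung E20 is the highest group for 8 genes, and Angpt1 lies below the dotted line in every array.

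Both Tie receptors were higher at E20 in the lung, with Tie1 past the fold threshold and Tek short of it. Tie1 ran from 10.54 to 11.46 (median 11.09) in lung E20, against 9.20 to 10.20 (median 10.07) in lung E16, a change of 1.09 (SE 0.14, limma adjusted p = 1.28e-08). Tek ran from 10.37 to 10.77 (median 10.64) in lung E20, against 9.49 to 9.94 (median 9.65) in lung E16. Its change was 0.91 (SE 0.09, limma adjusted p = 8.81e-12), a fold of 1.88. In neither gene did the ages overlap.

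The changes of the VEGF receptors in lung were below 2-fold. Kdr, the main signalling receptor, ran from 11.49 to 12.18 (median 12.03) in lung E20, against 11.004 to 11.44 (median 11.20) in lung E16. Its change was 0.71 (SE 0.12, limma adjusted p = 1.87e-06), with no overlap of arrays. Flt1, which binds VEGF-A tightly and can act as a decoy, ran from 8.67 to 9.05 (median 8.85) in lung E20, against 8.23 to 8.78 (median 8.49) in lung E16. Its change was 0.35 (SE 0.06, limma adjusted p = 6.05e-06), and the ages overlapped. In all, 7 of the 9 members passed on the adjusted p alone in the lung, all of them higher at E20, against 32.3% of all genes higher and 33% lower.

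Vegfa ran from 10.60 to 11.51 (median 11.14) in lung E20, against 9.61 to 10.30 (median 9.90) in lung E16. It rose by 1.16 (SE 0.10, limma adjusted p = 2.20e-13), with no overlap. The call rests on 1 of its 2 probe sets. Angpt1, the ligand that activates Tek, and Vwf were not called in the lung. Angpt1 ran from 5.39 to 6.13 (median 5.72) in lung E20 and from 4.82 to 6.30 (median 5.67) in lung E16 (change 0.16, 95% interval -0.15 to 0.48). Vwf ran from 7.89 to 9.46 (median 8.93) in lung E20 and from 7.99 to 9.01 (median 8.88) in lung E16 (change 0.14, 95% interval -0.13 to 0.41). The intervals of both exclude a 2-fold change.

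In the intestine, 1 member fell and none rose, against 6.26% of all genes that fell and 8.79% that rose. It was also the 1 member whose ages did not overlap, which was so for 37.6% of all genes. The one that fell was Angpt1, which ran from 3.86 to 4.70 (median 4.42) in intestine E20, against 5.22 to 6.53 (median 5.91) in intestine E16. The ages did not overlap, and the change was -1.49 (SE 0.16, limma adjusted p = 5.29e-11). Angpt1 was dim in all 40 arrays, and with 50 intensity units added to every value before log2 the change was -0.63 and no longer called. The size of the fall thus depends on how low values are treated. In intestine E20 only 0.26% of genes had a mean as low or lower, and in the other groups 5.91% to 6.85%. Whether its 1 probe set detected the transcript at such levels was not tested, which also limits the Angpt1 results below.

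Pecam1 and Tie1 were higher at E20 in the intestine by less than 2-fold. Pecam1 ran from 8.51 to 9.28 (median 9.02) in intestine E20, against 7.66 to 8.70 (median 8.18) in intestine E16, a change of 0.81 (SE 0.11, limma adjusted p = 1.67e-08). Tie1 ran from 8.76 to 9.56 (median 9.10) in intestine E20, against 7.76 to 9.08 (median 8.39) in intestine E16, a change of 0.77 (SE 0.14, limma adjusted p = 1.04e-05). The arrays of both ages overlapped in each gene. Emcn differed the other way: it ran from 8.90 to 9.84 (median 9.40) in intestine E20, against 9.29 to 10.66 (median 9.88) in intestine E16. Its change was -0.53 (SE 0.14, limma adjusted p = 0.00113).

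The receptors Kdr, Flt1 and Tek and the factor Vwf differed little between ages in the intestine. The change was 0.09 for Kdr (95% interval -0.15 to 0.32), 0.07 for Flt1 (-0.06 to 0.19), 0.26 for Tek (0.08 to 0.44) and -0.16 for Vwf (-0.42 to 0.11). The Vegfa change was 0.22 (0.02 to 0.42), and its second probe set had the opposite sign. All of these intervals lie within 2-fold. On the adjusted p alone 6 of the 9 members passed, 4 of them higher and 2 lower at E20, against 29.1% of all genes higher and 41.4% lower.

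**Figure D2:**
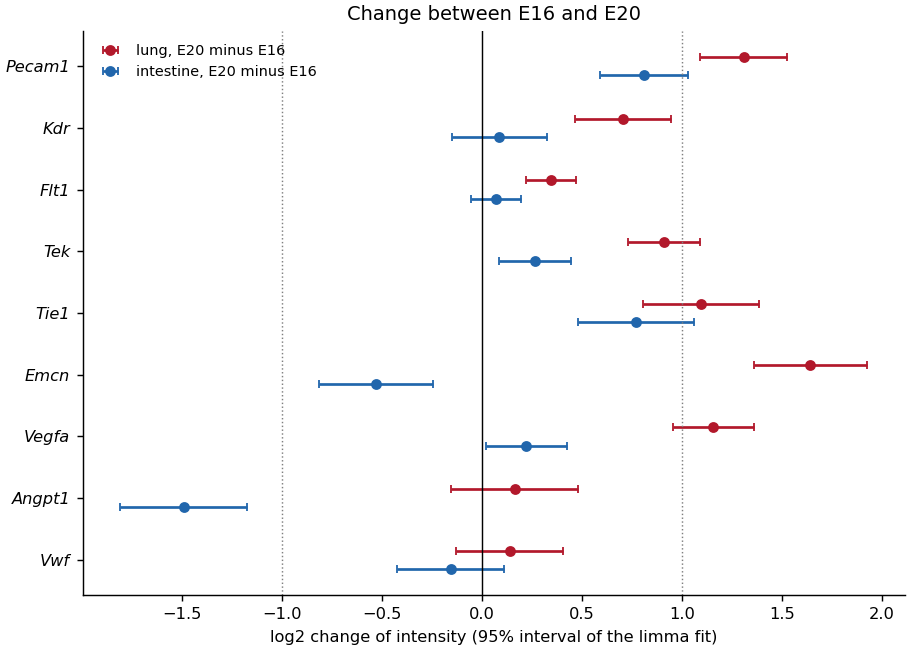
Log2 change of intensity, E20 minus E16, of each of the 9 genes in lung (red) and intestine (blue), with the 95% interval of the limma fit. Dotted lines mark a 2-fold change. Emcn lies at 1.64 in lung and -0.53 in intestine, and Angpt1 at 0.16 and -1.49.

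The difference between the change in lung and that in intestine was tested as an interaction. It was called for 2 of the 9 members, both in the direction of lung, against 9.12% of all genes in that direction and 8.47% in the other. These were Emcn (2.17, SE 0.20, limma adjusted p = 1.85e-12) and Angpt1 (1.65, SE 0.22, limma adjusted p = 2.88e-08). With 50 intensity units added before log2 the Angpt1 value was 0.71 and not called. Below 2-fold, the adjusted p was also under 0.05 for Vegfa (0.93), Tek (0.65), Kdr (0.62), Pecam1 (0.50) and Flt1 (0.28), so that 7 of 9 members passed on p alone, all in the direction of lung, against 34.6% of all genes in that direction and 30.4% in the other. For Tie1 the difference was 0.33 (95% interval -0.08 to 0.73) and for Vwf 0.29 (-0.08 to 0.67), and neither passed.

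Lung and intestine were then compared at each age. At E16, 6 of the 9 members were higher in lung by the call and none lower, against 2.13% of all genes higher and 3% lower. All genes split into 303 higher and 427 lower, and with arrays centred on their medians into 387 higher and 345 lower. The median of all genes at E16 moved between -0.11 as deposited and 0.04 with centred arrays. Beside it, the members' median difference was 1.07.

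The 6 genes at E16 were Tie1 (1.53, SE 0.14), Pecam1 (1.27, SE 0.11), Vwf (1.27, SE 0.13), Kdr (1.19, SE 0.12), Vegfa (1.07, SE 0.10) and Tek (1.07, SE 0.09), with limma adjusted p-values of 1.36e-10 or lower. The Vegfa call at E16 rests on its brighter probe set: the second set had the opposite sign (-0.33, SE 0.06, limma adjusted p = 1.63e-05). The call was lost with probe sets averaged (0.37), with 50 units added (0.996) and without the arrays holding transcripts of other tissues (0.998), and the Tek call was lost with 50 units added (0.98). In these 6 genes the arrays of both organs did not overlap, which was so for 19.3% of all genes. Flt1 was short of the threshold (0.34, SE 0.06). Emcn differed little between the organs at this age, at 9.94 ± 0.33 in lung and 9.88 ± 0.39 in intestine (SD, n = 10 each; difference 0.05, 95% interval -0.23 to 0.34). Angpt1 stood at 5.60 ± 0.39 in lung and 5.88 ± 0.49 in intestine (difference -0.28, 95% interval -0.60 to 0.03).

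At E20, 8 of the 9 members were higher in lung by the call and none lower, against 7.91% of all genes higher and 8.21% lower. All 9 members had arrays that did not overlap between the organs, against 34.1% of all genes, and the members' median difference was 1.77. Emcn was 11.58 ± 0.24 in lung and 9.35 ± 0.32 in intestine (difference 2.23, SE 0.14), the largest of the members. Vegfa differed by 2.01 (SE 0.10), Tie1 by 1.85 (SE 0.14), Kdr by 1.81 (SE 0.12), Pecam1 by 1.77 (SE 0.11) and Tek by 1.72 (SE 0.09). Vwf, which was not called for age in either organ, differed by 1.57 (SE 0.13) and Angpt1 by 1.37 (SE 0.16). The Angpt1 difference was 0.55 and not called with 50 units added, and did not pass the test against a 2-fold change (limma adjusted p = 0.134). The limma adjusted p was at most 4.79e-10 for these 8 genes, and Flt1 was the one not called (0.61, SE 0.06).

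The order of the 4 groups was the same for Pecam1, Kdr, Flt1, Tek, Tie1 and Vegfa: lung E20, lung E16, intestine E20 and intestine E16. Neighbours in this order did not overlap throughout for lung E20 and lung E16 in 5 of these genes, Flt1 being the exception. Lung E16 and intestine E20 did not overlap in Kdr, Tek and Vegfa and overlapped in Pecam1, Tie1 and Flt1. The 2 ages of intestine overlapped in all 6. For Emcn, lung E20 stood apart from the other 3 groups, each of which overlapped with its neighbour. For Vwf the step lay between the organs, with overlapping ages in each. For Angpt1 the step lay between intestine E20 and the other 3 groups, which overlapped with each other.

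Vegfa, Flt1 and Kdr had further probe sets, and these did not all repeat the pattern of the brightest. The second Vegfa probe set was 8.90 ± 0.10 in lung E20 and 8.78 ± 0.11 in lung E16 (SD, n = 10 each; change 0.12, 95% interval -0.003 to 0.24). In intestine it was 8.74 ± 0.13 at E20 and 9.11 ± 0.16 at E16 (change -0.37, SE 0.06, limma adjusted p = 8.61e-07), against 0.22 for the brighter set. The brighter set minus the second one within an array averaged 2.15 ± 0.32 in lung E20 and 1.11 ± 0.24 in lung E16, without overlap (difference 1.04, permutation p = 2e-05, two-sided, the smallest that 100000 resamples can give here; adjusted over 4 tests 4e-05). In intestine it averaged 0.31 ± 0.27 at E20 and -0.29 ± 0.33 at E16 (difference 0.60, permutation p = 0.0006, two-sided; adjusted p = 0.0006). The within-array test was not planned and restates the changes of both sets, so its p-values carry no independent support. Both probe sets passed the interaction test on p alone, at 0.93 and 0.49, in the direction of lung. Which transcripts each set detects was not tested.

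**Figure D3:**
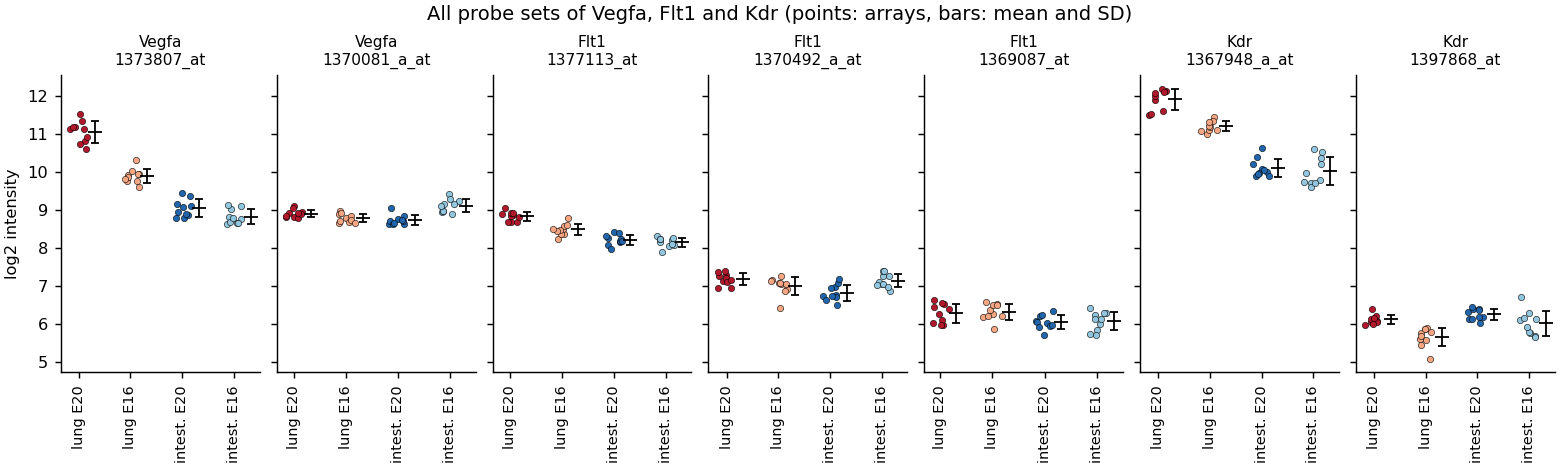
Log2 intensity of all 7 probe sets of Vegfa, Flt1 and Kdr in each array (points) of lung E20, lung E16, intestine E20 and intestine E16, with mean and SD beside them. The brightest set of Vegfa separates both lung groups from each other and from intestine, while the ages of intestine overlap. Its second set lies at 8.74 to 9.11 on average in all 4 groups.

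The other 2 Flt1 probe sets were dim. In lung, the second one was 7.18 ± 0.16 at E20 and 6.997 ± 0.23 at E16, and in intestine 6.82 ± 0.21 at E20 and 7.13 ± 0.18 at E16. The third one had means of 6.28 in lung E20, 6.31 in lung E16, 6.04 in intestine E20 and 6.07 in intestine E16. The second Kdr set, also dim, was higher at E20 in the lung by 0.47 (SE 0.10, limma adjusted p = 9.51e-05). In contrast to the bright Kdr set, it was not higher in lung than in intestine, with differences of -0.14 (SE 0.10) at E20 and -0.36 (SE 0.10) at E16. When the probe sets of a gene were averaged, Vegfa lost its call in lung between ages (0.64) and between organs at E16 (0.37), and Kdr its call between organs at both ages (0.84 at E20 and 0.41 at E16).

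Emcn was higher at E20 in lung, as were the other endothelial genes, and lower at E20 in intestine. The within-array comparison was not among the planned tests. Emcn also had the largest lung change of the members, so the p-values here carry no independent support. Within each array, Emcn minus the mean of Pecam1, Kdr, Flt1, Tek and Tie1 averaged 0.96 ± 0.27 in lung E20 and 0.19 ± 0.36 in lung E16 (SD, n = 10 each). This within-array difference was 0.77 higher at E20 in lung (permutation p = 6e-05, two-sided; adjusted over 4 tests 8e-05). In intestine it averaged 0.29 ± 0.35 at E20 and 1.22 ± 0.34 at E16. The difference between the ages there was -0.93 (permutation p = 2e-05, two-sided, the smallest that 100000 resamples can give here; adjusted p = 4e-05). Relative to the other endothelial genes, Emcn was thus higher at E20 in lung and lower at E20 in intestine, with arrays of the ages overlapping in both organs.

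**Figure D4:**
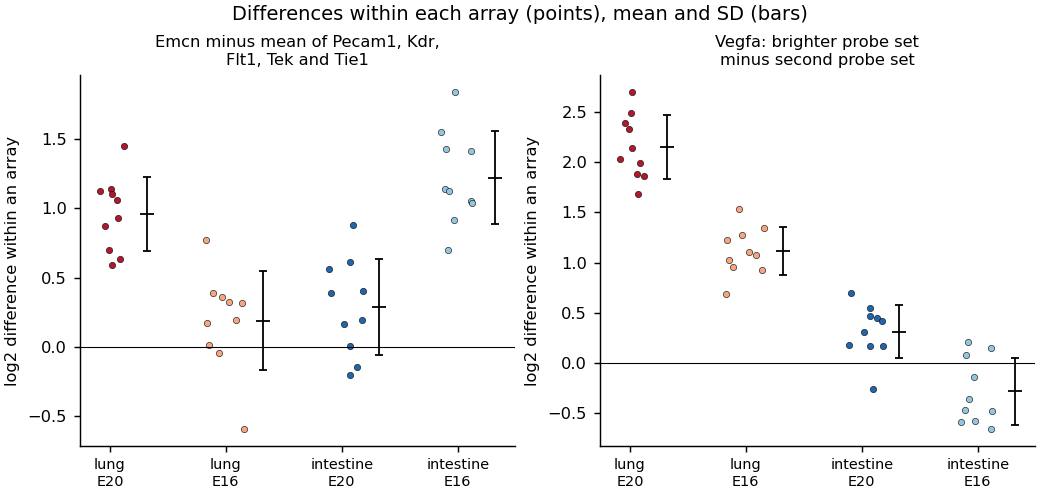
Left, log2 difference within each array (points) between Emcn and the mean of Pecam1, Kdr, Flt1, Tek and Tie1; right, between both Vegfa probe sets; groups are lung E20, lung E16, intestine E20 and intestine E16, with mean and SD. The left difference averages 0.96 in lung E20, 0.19 in lung E16, 0.29 in intestine E20 and 1.22 in intestine E16.

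Some pairs of members also varied together between arrays of 1 group, and others did not. As a description, deviations from the group means over the 40 arrays correlated at r = 0.86 for Pecam1 and Tie1 (0.75 to 0.94 within the 4 groups), at 0.77 for Kdr and Tek (0.39 to 0.93) and at 0.77 for Tie1 and Vwf (0.79 to 0.92). Emcn correlated at 0.64 with Tek, but at 0.14 with Pecam1 and 0.11 with Tie1. Flt1 correlated at 0.40 with Tie1 and 0.30 with Kdr, but at 0.15 with Pecam1, 0.07 with Tek and -0.10 with Emcn. Vegfa correlated at 0.58 with Flt1 and at -0.35 with Emcn. The genes share arrays, RNA and normalization, so these values carry no test. Among 9764 other genes brighter than the median of all values, Ptprb was most like the mean of the endothelial members (r = 0.91, 0.81 to 0.96 within groups). It encodes the phosphatase that acts on the Tek receptor in endothelium. It was followed by Itga6 (0.81), the semaphorin receptor gene Plxnd1 (0.81), Epas1 (0.80) and the endothelial matrix gene Mmrn2 (0.79). Most like Vegfa was Zfp36 (r = 0.75), most like Vwf was Plec (0.83) and most like Angpt1 was Akap7 (0.66).

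Further genes of these pathways were taken from lists chosen with earlier results of these data known. The shares of all genes to read the counts against are 7.15% that rose and 4.63% that fell in lung, 8.79% that rose and 6.26% that fell in intestine, and 7.91% at E20 and 2.13% at E16 higher in lung than in intestine. Of 7 other VEGF ligands and receptors, 1 rose in lung and none fell, while in intestine 2 fell and none rose. The co-receptor Nrp2 changed in opposite directions: it averaged 9.78 in lung E20 and 8.23 in lung E16 (change 1.55, SE 0.12), and 8.95 in intestine E20 and 10.04 in intestine E16 (change -1.10, SE 0.12). The co-receptor Nrp1 fell in intestine (-1.47, SE 0.08) and had a change of 0.68 in lung, where it was not called. The interaction was 2.64 for Nrp2 and 2.15 for Nrp1 (limma adjusted p = 3.35e-17 for Nrp2 and 1.31e-19 for Nrp1), so that these co-receptors differed between the organs in the same sense as Emcn. Of 3 other genes of the angiopoietin pathway, Ptprb rose in lung (1.32, SE 0.11) and none was called for age in intestine. Angpt2, which can block Tek and is named for this role although it was not called, had changes of 0.08 in lung and 0.26 in intestine.

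Of 20 other pan-endothelial genes, 4 rose in lung and none in intestine, none fell in either, and the list's median change was 0.67 in lung and 0.20 in intestine. The 4 were Acvrl1, a BMP-type receptor (1.40), Cd93 (1.37), the junction claudin Cldn5 (1.37) and Clec14a (1.10). Lung exceeded intestine in 9 of these 20 genes at E16 and in 15 at E20, led at E20 by Cd93 (2.90), Cldn5 (2.76) and the sphingosine phosphate receptor S1pr1 (1.82). Of 12 endothelial transcription factor genes, Sox17 rose in lung (1.55), and Lyl1 (-2.38) and Fli1 (-1.02) fell in intestine. Lyl1 and Fli1 are also blood cell genes. In intestine 7 of 7 erythroid genes fell, while 2 of 7 leukocyte genes rose and none fell. The part of blood cells in the Lyl1 and Fli1 changes was not tested. Ets1 had changes of 0.81 in lung and -0.82 in intestine (interaction 1.63, SE 0.12).

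Genes of arteries and of lung capillaries were counted next. Of 7 arterial and Notch genes 3 rose in lung, led by the arterial connexin Gja5, at 12.21 in lung E20 and 9.51 in lung E16 (change 2.70, SE 0.12), with the Notch target Hey1 (1.09) and the connexin Gja4 (1.07). In intestine Notch4 rose (1.75) and none fell. Gja5 is also expressed in cardiac muscle of the atria, and 7 cardiac genes stood at 7.94 to 9.21 in lung E20 on average and at 7.41 to 11.86 in lung E16. The part of cardiac muscle in the Gja5 change was not tested. Of 6 genes linked to lung capillaries, Fibin (2.57) and Prx (1.94) rose in lung, and none was called for age in intestine. Between the organs, 3 of these 6 genes were higher in lung by the call at E20 and none lower. At E16, 2 were higher and 1 lower, against 3% of all genes lower. The apelin receptor gene Aplnr was higher in lung than in intestine by 2.25 at E20 and 2.48 at E16. Of 3 venous genes, Ackr1 (-1.27) and Nr2f2 (-1.03) fell in intestine, and none was called in lung.

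**Figure D5:**
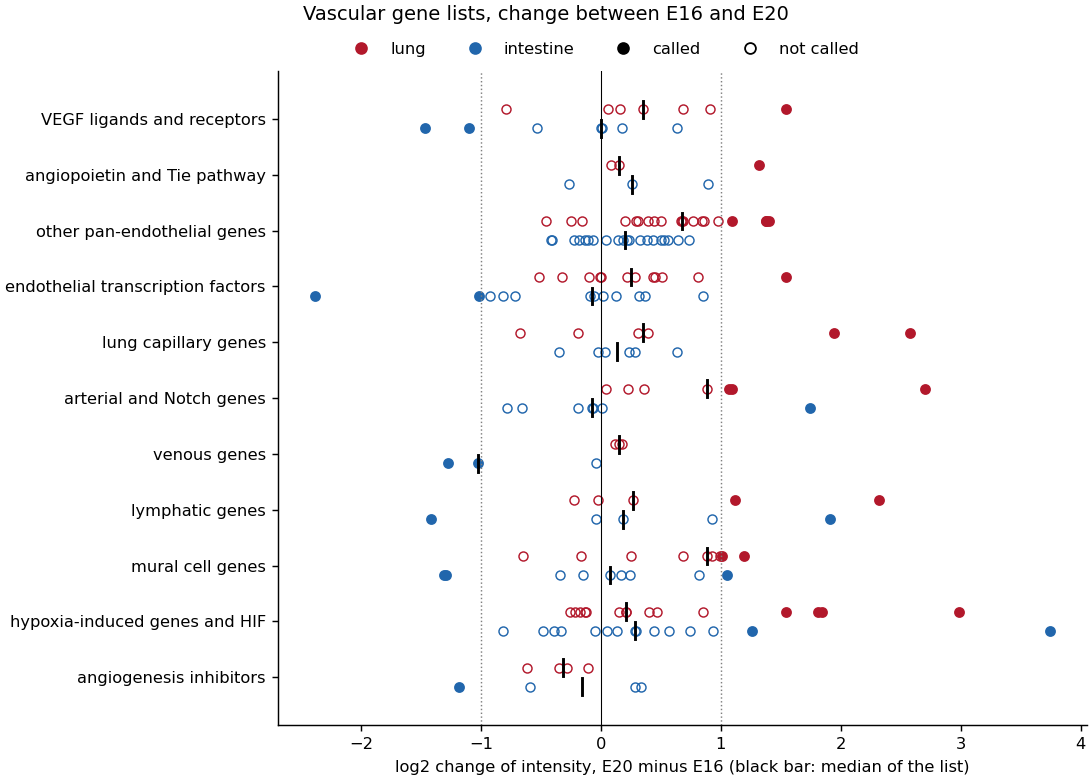
Log2 change, E20 minus E16, of each gene of 11 vascular lists in lung (red) and intestine (blue); filled points are called, open points are not, and black bars are list medians. The pan-endothelial list has a median of 0.67 in lung and 0.20 in intestine, and Gja5 lies at 2.70 in lung.

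Genes induced by low oxygen and those of the HIF system, which is known to drive Vegfa, were also counted. Of 15 measured, 4 rose in lung (Ndrg1, 2.99; Egln3, 1.84; Epas1, 1.81; Adm, 1.54) and 2 in intestine (Ndrg1, 3.74; Epas1, 1.26), none fell in either, and the medians were 0.21 in lung and 0.29 in intestine. Epas1, the HIF subunit of endothelium and of alveolar cells, averaged 12.40 in lung E20 and 10.60 in lung E16. Of 4 angiogenesis inhibitors, Col18a1, the precursor of endostatin, fell in intestine (-1.19), and none was called in lung. Of 9 genes of mural cells, which wrap the walls of vessels, Abcc9 (1.20) and Myh11 (1.01) rose in lung. In intestine Rgs5 rose (1.05), and Kcnj8 (-1.30) and Pdgfrb (-1.29) fell. Myh11, Acta2 and Tagln of this list are also genes of smooth muscle outside vessels. The list's summed intensity was 10315 to 12892 in lung E20 and 5744 to 7946 in lung E16. It was 16335 to 30172 in intestine E20 and 15401 to 22550 in intestine E16. The part of such muscle in these changes was not tested. Of 5 lymphatic genes, Ccl21 rose in lung (1.12) and in intestine (1.91), and Pdpn rose in lung (2.32) and fell in intestine (-1.41). Pdpn is also an alveolar type I gene.

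Markers of other cells were measured beside the members, since some of them share transcripts with endothelium. Of 7 leukocyte genes, 2 rose in lung and 2 in intestine, and their summed intensity was 5677 to 7205 in lung E20, 3017 to 3559 in lung E16, 4691 to 5896 in intestine E20 and 2894 to 4145 in intestine E16. Its part in the Pecam1 changes was not tested. Of 6 platelet genes none was called in lung and Pf4 fell in intestine (-2.22). Their sum was 2637 to 3913 in lung E20, 2220 to 3064 in lung E16, 1440 to 1710 in intestine E20 and 2288 to 4278 in intestine E16, and its part in the Vwf and Pecam1 values was not tested. Alveolar type I genes, a known site of VEGF-A in lung, rose in 5 of 6 cases, with a sum of 20394 to 36652 in lung E20 and 2986 to 3463 in lung E16, and its part in the Vegfa rise was not tested. Epithelial genes rose in 7 of 7 cases in intestine, with a sum of 45035 to 56775 in intestine E20 and 4817 to 7485 in intestine E16. In lung they rose in 6 of 7 cases, with a sum of 17897 to 23239 in lung E20 and 4615 to 6693 in lung E16. Of 7 erythroid genes 3 fell in lung and 7 in intestine, with a sum of 6286 to 15863 in lung E20, 17228 to 26463 in lung E16, 2081 to 5045 in intestine E20 and 23951 to 49050 in intestine E16. The part of both lists in the members' changes in either organ was not tested.

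Lung E20 replicates 1, 6 and 8, set apart in an earlier look at liver and mesothelial transcripts, had the lowest mean of the endothelial members in their group, 10.46 to 10.66 against 10.77 to 10.99 in the other 7 arrays. Another 4 intestine arrays had been set apart for transcripts of other tissues: E16 replicates 6, 8 and 9 and E20 replicate 9. Exocrine pancreas genes averaged 8.67 to 8.84 in those E16 arrays, against 6.14 to 7.03 in the other E16 arrays of intestine. Without these lung and intestine arrays the lung had 4 called members. Their changes were 1.67 for Emcn, 1.43 for Pecam1, 1.30 for Vegfa and 1.25 for Tie1. The lung arrays left out were the lowest for the endothelial mean, so this omission cannot show that the calls hold. Without the 4 lung E16 arrays with cardiac transcripts the 4 changes were 1.72 for Emcn, 1.29 for Pecam1, 1.07 for Vegfa and 1.03 for Tie1.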

How the data were processed

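Affymetrix arrays of 40 samples (4 groups of 10) were used. The deposited values are normalized summary intensity values per probe set on a linear scale, made by the authors with RMA per the submitters' processing notes, which give no version. A log2 scale had been assumed when the tests were planned, so log2 was taken here first. Of 31099 probe sets, 57 controls were left out and 31042 were fitted in limma 3.58.1 (R 4.3.3) with 4 group means over all 40 arrays, without covariates, and p-values were adjusted over all probe sets (two-sided). Genes were named from the platform annotation, where 20826 probe sets had 1 symbol, for 14217 genes. Depth does not apply to arrays, and their number limits the precision. Differences within arrays were tested by permutation with 100000 resamples (SciPy 1.17.1), adjusted over 4 tests. They were not among the planned tests. The fit was tested on simulated data. Alternatives covered normalization, centring, a replicate block, low values, dim probe sets, averaging of probe sets, 1 probe set per gene, array weights, a test against a 2-fold change and arrays left out; the last 2 kinds of omission (arrays with cardiac transcripts, single arrays) were chosen after seeing the data. The members and lists were chosen with earlier results of these data known. All members are named; of each other list up to 4 called genes with the largest change in a comparison are named, and for likeness up to 5 genes with the highest correlation. The labels do not say that replicate numbers mark shared embryos, so the numbers were not used as pairs. Same-numbered lung and intestine arrays at E16 correlated at -0.07 to 0.48 (median 0.17). The organs were compared as unpaired there, and a pairing of the organs within an age was not tested.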

Additional observations from a re-analysis of the deposited data

Results flagged for a closer look

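The change in lung differed from the change in intestine by the interaction test for 7 members: Emcn (2.17), Angpt1 (1.65), Vegfa (0.93), Tek (0.65), Kdr (0.62), Pecam1 (0.50) and Flt1 (0.28), with limma adjusted p-values of 0.00639 or lower. This is by the adjusted p alone, which 34.6% of all genes passed in that direction and 30.4% in the other, and 2 of the 7, Emcn and Angpt1, were also past 2-fold. An array lay far from the other 9 of its group in 3 of 52 groups of probe set and group, where chance gives about 1 in 20. These were the dim second Kdr probe set in lung E20 replicate 6 (6.40, next array 6.19), the second Flt1 probe set in lung E16 replicate 2 (6.42, next array 6.87) and the second Vegfa probe set in intestine E20 replicate 1 (9.06, next array 8.84). None of these 3 is the probe set that represents its gene.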

How the results depend on the processing

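Under the alternatives other than single arrays left out, 19 of the members' changes lost a call, 2 gained one, 3 changed sign and the others kept direction and side of the threshold. With probe sets averaged per gene, the intestine changes of Flt1 (-0.090) and Vegfa (-0.076) changed sign. The E16 difference of Emcn between lung and intestine was -0.024 without the lung E16 arrays with cardiac transcripts and -0.018 to 0.14 with single arrays left out, below 0 without lung E16 replicate 9 (-0.018) and without intestine E16 replicate 4 (-0.013). With 50 intensity units added, or with bright probe sets only, 0 members were called between ages in intestine and 1 in the interaction, since Angpt1 is dim. Bright probe sets alone left 476 genes called between organs at E16. A test against a 2-fold change called 1002 genes and 1 member in lung and 1479 genes in the interaction. It called 397 genes and 1 member between organs at E16. For the interaction Vegfa was called with array weights (1.06) and without arrays holding transcripts of other tissues (1.16). Leaving out single arrays changed no count of members called (4 in lung, 1 in intestine, 2 in the interaction, and between organs 8 at E20 and 6 at E16). With a replicate block the same member counts were found, and 2505 genes in place of 2501 in the interaction. The block joined arrays of both ages and organs that share a number. In this balanced design it leaves the size of every change as it was, so it cannot decide if the numbers mark pairs. Same-numbered arrays correlated above 0.1 in 5 of 10 pairs between ages in lung and 3 of 10 between ages in intestine. Between organs this was so for 3 of 10 pairs at E20 and 6 of 10 at E16. At E16, 5 of 10 arrays correlated best with their own number in the other organ, a hint from the data and not from the labels, and not every pair did so.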
